A study of Mus musculus with 26 samples.

Results

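The regions described here are the places in the genome of E14 mouse embryonic stem cells that were called in the K4-K27 ChIP-reChIP and that share no base with any region called in the K27-K4 ChIP-reChIP. They were chosen by comparing both deposited region sets, which are larger than the sets in the study's text. Of 24540 K4-K27 regions, 2683 (10.9%) met this rule and are called members below, while the other 21857 (the shared regions) stood in the K27-K4 set with identical coordinates. The K27-K4 set held 36235 regions, of which 14378 were found only there. In a ChIP-reChIP, chromatin digested to mononucleosomes is pulled down with a first antibody, released and pulled down again with a second. K4-K27 means anti-H3K4me3 before anti-H3K27me3, and K27-K4 the opposite order.

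The study made 26 libraries from cells grown in serum and LIF. E14, an established line, gave 2 replicates of each reChIP order and of the in-line totals of H3K4me3 and H3K27me3, taken from different passages on separate days, and 1 IgG-IgG reChIP. The clones were 2 WT (57 and 58) and 2 DKO (43 and 53), the latter lacking both Dppa2 and Dppa4, with the same 4 ChIPs each and 1 IgG-IgG reChIP from clone 57. The labels name no added agent in any of these groups. Each DKO clone is a single clonal line, so a genotype rests on 2 lines. Totals are the share of chromatin kept after the first pull-down, and they come from few cells. The anti-H3K4me3 serum has been reported to bind H3K4me2 as well. E14 replicates 1 and 2 and the clones were sequenced in separate batches, so differences between E14 and clones cannot be told apart from batch.

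Bivalent chromatin carries H3K4me3, a mark of active or poised promoters laid down by Trithorax-type methyltransferases, together with H3K27me3, a mark of Polycomb repression. In embryonic stem cells it is known from CpG-rich promoters of silent developmental regulators. H3K4me3 forms sharp peaks at start sites, while H3K27me3 also spreads at lower levels over intergenic chromatin. Dppa2 and Dppa4 are DNA-binding partners that are known to hold both marks at a subset of bivalent promoters.

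The sequences at the centres of the members ranked first show what kind of DNA they held, beside the shared region with the highest reChIP level. Each is 300 bases of the plus strand of GRCm38 (mm10), read from RefSeq's assembly, and capitals mark CpG dinucleotides. None of these bases lies in an annotated exon.
Member near Evx2, highest in E14 K4-K27 over IgG-IgG, chr2:74652151-74652450: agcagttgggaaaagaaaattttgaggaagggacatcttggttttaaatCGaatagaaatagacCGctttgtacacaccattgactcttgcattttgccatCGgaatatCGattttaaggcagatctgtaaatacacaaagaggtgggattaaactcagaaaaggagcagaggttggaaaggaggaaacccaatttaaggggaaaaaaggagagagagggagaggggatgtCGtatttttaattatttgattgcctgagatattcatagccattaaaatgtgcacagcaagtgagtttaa
Member near Lratd2, highest in E14 total H3K27me3 over IgG-IgG, chr15:60843076-60843375: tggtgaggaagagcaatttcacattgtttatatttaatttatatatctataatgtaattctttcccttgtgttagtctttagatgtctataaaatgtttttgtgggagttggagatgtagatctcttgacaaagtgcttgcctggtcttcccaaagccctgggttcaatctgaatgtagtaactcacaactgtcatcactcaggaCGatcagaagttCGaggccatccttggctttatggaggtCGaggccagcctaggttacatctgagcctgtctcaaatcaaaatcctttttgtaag
Member at the Papss2 promoter, highest in E14 total H3K4me3 over IgG-IgG, chr19:32621026-32621325: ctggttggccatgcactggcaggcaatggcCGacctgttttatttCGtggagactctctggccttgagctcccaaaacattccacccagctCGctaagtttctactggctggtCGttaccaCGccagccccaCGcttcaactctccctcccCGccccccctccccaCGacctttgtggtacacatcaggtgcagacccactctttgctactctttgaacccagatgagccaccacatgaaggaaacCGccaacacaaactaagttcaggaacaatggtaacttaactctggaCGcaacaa
Widest member, near Peg12, chr7:62481376-62481675: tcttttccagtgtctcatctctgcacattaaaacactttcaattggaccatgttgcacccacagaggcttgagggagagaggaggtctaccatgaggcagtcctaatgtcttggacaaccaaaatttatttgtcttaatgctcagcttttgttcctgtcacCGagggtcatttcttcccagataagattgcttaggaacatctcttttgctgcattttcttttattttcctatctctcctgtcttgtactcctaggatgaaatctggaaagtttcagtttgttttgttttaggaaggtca
Shared region near Gm1979, highest mean reChIP value, chr5:26007076-26007375: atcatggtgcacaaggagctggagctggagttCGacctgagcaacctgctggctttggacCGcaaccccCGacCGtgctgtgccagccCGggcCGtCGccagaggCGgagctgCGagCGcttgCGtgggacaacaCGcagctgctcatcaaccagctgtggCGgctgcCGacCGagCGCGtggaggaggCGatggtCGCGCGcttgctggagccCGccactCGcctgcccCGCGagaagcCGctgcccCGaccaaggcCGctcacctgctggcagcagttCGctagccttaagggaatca
The shared region held 29 CpGs in 300 bases. The members held 5 (near Evx2), 3 (near Lratd2), 10 (at Papss2) and 1 (near Peg12). These are single examples, and the whole sets are compared next.

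Members were short and stood away from promoters. Their median width was 600 bases (quartiles 300 and 900), against 3300 (2100 and 5250) for shared regions and 1500 (900 and 2250) for regions found only in K27-K4. Of the members, 738 (27.5%) had the smallest width called, 300 bases, against 17 (0.0778%) of the shared regions, and 19 members (0.708%) were wider than 3000 bases. They covered 1952550 bases in all, 1.99% of the bases in K4-K27 regions. Width comes from the calls that chose the members and was not tested. Every shared region starts and ends at the same bases in the K27-K4 set. Its width may therefore not be that of a K4-K27 call made separately. How the sets were built is not known, so the width contrast need not be a property of the members. From the 738 narrowest to the 19 widest members, median K4-K27 enrichment fell from 2.29 to 1.36 log2 units (enrichment is the difference from IgG-IgG in log2 RPM per kb, where RPM scales reads to the depth of the library), and the share in E14 total H3K27me3 regions went from 18.6% to 57.9%.

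**Figure D1:**
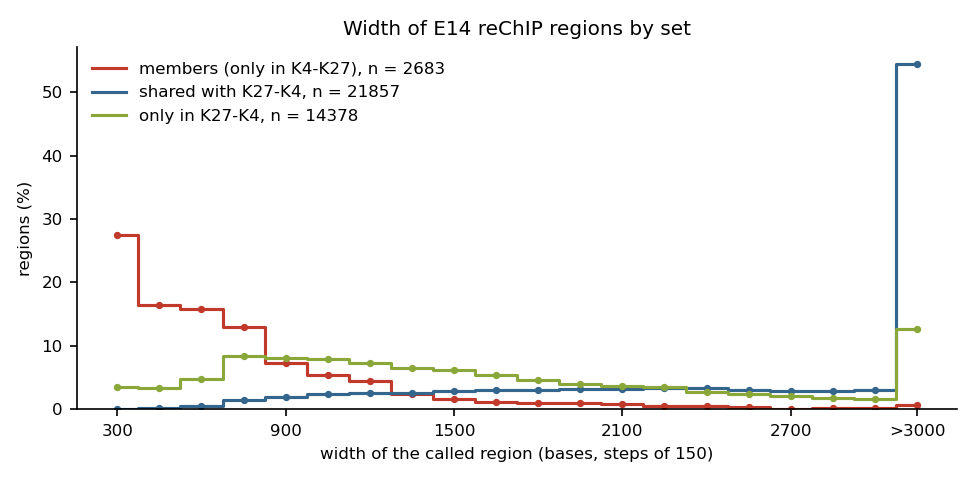
Width of E14 reChIP regions in bases (x axis, the last point collecting all above 3000) against the percentage of each set (y axis), for members, shared regions and regions found only in K27-K4. Members fall off from 27.5% at 300 bases, while 54.4% of the shared regions lie above 3000.

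Only 102 members (3.80%) reached within 1.5 kb of a RefSeq start site, against 59.4% of shared regions and 14.8% of regions found only in K27-K4. Members were intergenic in 1841 cases (68.6%), intronic in 684 (25.5%) and touched an exon in 158 (5.89%). The median distance from a member to the nearest start site was 27199 bases (quartiles 7352 and 107262), and that of a shared region was 0. GC content had a median of 44.7% in members and 50.1% in shared regions. CpG density had a median of 0.833 per 100 bases in members, 2.37 in shared regions and 1.88 in regions found only in K27-K4. No CpG at all was present in 167 members (6.22%). The share of bases masked as repeats was alike, with medians of 14.9% and 15.4%. These sequence and position features were not used by the rule, and they are given as descriptions.

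Among the autosomes and X, members made up between 4.64% (31 of 668 regions on X) and 14.7% (123 of 838 on chromosome 18) of the K4-K27 regions. Chromosomes 3 (14.3%) and 8 (14.2%) lay near the top of this range. Y held 1 region, which was not a member. Single members lay far apart, with a median of 157350 bases to the next member, and 539 had another member within 10 kb.

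At the edge of the rule, the smallest gap between a member and a K27-K4 region was 300 bases. Whether the region calling set this limit is not known. At this gap stood 162 members. They had a median width of 750 bases. Their median K4-K27 enrichment was 2.15 in E14 replicate 1 and 1.49 in replicate 2, and their K27-K4 enrichment was 1.32 and 0.89. The 161 K27-K4 regions beside them had a K4-K27 enrichment of 2.08 and 2.23 and a K27-K4 enrichment of 2.12 and 3.06. Of these neighbours, 138 were themselves shared regions. In all, 528 members (19.7%) lay within 1 kb of a K27-K4 region, the median gap was 8250 bases and 462 members were over 100 kb away.

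The genes at the members were few. The 102 promoter members touched the promoters of 103 genes, and no gene of the developmental transcription factor list was among them. Promoters of that list made up 287 (2.21%) of the 12987 shared promoter regions. Promoters of the signalling, germline, pluripotency, Polycomb and Trithorax, ribosomal protein and imprinted gene lists also held 0 members. The axon guidance list had 2 members, at Cntn1, a neural adhesion protein, and at Epha1, an ephrin receptor. The ion channel and receptor list had 2, at Gabrb1, a GABA receptor subunit, and at Grik2, a kainate receptor subunit. The immune list had 2, at Cd300e and at Cd160, the olfactory and vomeronasal list 1 (Vmn2r120) and the zinc finger list 1 (Zscan5b). For the same lists in that order, shared regions at promoters numbered 129 (0.993% of the shared promoter regions), 258 (1.99%), 144 (1.11%), 20 (0.154%) and 365 (2.81%). With 102 promoter members in all, list counts of 0 to 2 are too few to set against these shares.

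At Grik2 (chr10:49786501-49787550, intronic, 364 bases from a start site) the K4-K27 level was 1.01 and 0.22 log2 RPM per kb in E14 replicates 1 and 2, and K27-K4 was -0.02 and -0.95. Its total H3K27me3 was -0.11 and -0.06 and its total H3K4me3 -1.53 and -1.37. Both totals of H3K27me3 were thus above both totals of H3K4me3. At Zscan5b (chr7:6222151-6222450, exonic) the totals stood the other way, with H3K4me3 at 1.42 and 1.10 and H3K27me3 at 0.44 and -0.67. Its K4-K27 values of 0.42 and 1.22 rested on 4 and 24 reads.

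By nearest start site, 111 members (4.14%) belonged to developmental transcription factors, against 2.98% of shared regions. The corresponding shares were 2.16% and 1.15% for axon guidance, 2.61% and 1.71% for ion channels and receptors, 1.64% and 1.36% for signalling, 1.79% and 0.412% for olfactory and vomeronasal receptors, 1.34% and 0.302% for imprinted genes, and 1.27% and 1.14% for immune genes. Zinc finger genes (1.12% and 2.46%), germline (0.335% and 0.522%), ribosomal protein (0.298% and 0.755%) and pluripotency genes (0.0745% and 0.210%) went the other way, and Polycomb and Trithorax genes were nearest to 0 members. The imprinted list also took in Slc22a22 and Slc22a29, at 1 member each, which are not established imprinted genes. These shares are descriptions. A nearest gene in a long gap collects more regions, so they name places, not targets.

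The gene with most members was Pax3, a transcription factor of neural crest and muscle, with 13 members spread over chr1:77979601-78186150 and 6 shared regions. Next came Peg12, a paternally expressed imprinted gene, with 12 members over chr7:62445451-62838150 and 3 shared regions. Got2, a mitochondrial aminotransferase, and Pappa, a metalloprotease, were nearest to 10 members each, with 4 and 7 shared regions. Ctnnd2, a neural catenin, had 8 members and 6 shared regions, and Gm30158, Nudt7, Pcdh7 and Slc9a9 had 7 members each. Of the 13 members near Pax3, 9 overlapped an E14 total H3K27me3 region, and 1 of the 12 near Peg12 did.

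The widest member lay 12891 bases from the Peg12 start site (chr7:62477401-62485650, intergenic, 8250 bases). Its E14 K4-K27 level was 1.65 and 0.44 log2 RPM per kb, from 258 and 386 reads, so the replicates differed despite this depth. Its K27-K4 level was 0.37 and -0.50. In the clones, K4-K27 was -0.28 (57), 0.91 (58), 0.95 (43) and -0.20 (53), and K27-K4 was 0.90, 0.70, 0.85 and 0.42 in the same order. Total H3K27me3 was 1.17, 0.71, 0.88 and 0.16, above total H3K4me3 at -1.93, -1.20, -1.58 and -1.67 in every clone. K4-K27 was thus above K27-K4 in both E14 replicates and below it in clones 57 and 53. The next 2 by width, near 9230020A06Rik (chr11:71494651-71502300) and 4933417O13Rik (chr7:143341501-143349150), were both 7650 bases wide with K4-K27 at 1.49 and 0.37, and at 1.31 and 0.06, in the E14 replicates.

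The 5 members with the highest E14 K4-K27 enrichment over IgG-IgG, among the 1626 with at least 10 reads in both libraries, lay near Evx2, 1700026D11Rik, Pcdh7, Otp and Spats2l, with mean enrichments between 4.31 and 4.05 log2 units. All were 1050 to 1500 bases wide and outside promoters. Evx2, a homeobox gene beside the Hoxd cluster, lay 6657 bases away from the first of them (chr2:74651701-74652900), which also stood 300 bases from a K27-K4 region. Its K4-K27 level was 1.42 and 0.39 in E14 (32 and 54 reads), K27-K4 was 0.68 and -0.72 (13 and 35 reads), and IgG-IgG was -3.40 (1 read). Total H3K27me3 was 0.02 and 0.30, and total H3K4me3 -1.72 and -1.83. In the clones its K4-K27 level ran from -2.10 (58) over -0.66 (57) and -0.06 (53) to 1.09 (43), and its K27-K4 level was -0.55 (57), 0.55 (58), -0.56 (43) and 0.39 (53). Each of the 5 rested on 1 IgG-IgG read, so their rank was set by a single read of the control.

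Otp, a homeobox regulator of hypothalamic neurons, had a member 12115 bases from its start site (chr13:94887751-94888800) with E14 K4-K27 at 1.37 and 0.38, K27-K4 at -0.24 and -0.13, and total H3K27me3 at 0.22 and 0.61. The member near Pcdh7, a protocadherin gene, overlapped an exon (chr5:57727051-57728550) and had K4-K27 at 0.96 and -0.17. The members with the highest E14 total H3K27me3 enrichment lay near Lratd2, Spats2l, Mir128-2, 1700026D11Rik and St8sia2, between 3.95 and 3.70 log2 units. Those with the highest total H3K4me3 enrichment lay at or near Papss2, 2310039L15Rik, Zfp418, Gm15201 and Vwa3a, between 3.64 and 3.21. These rankings too hung on the control, with at most 1 IgG-IgG read at each of the former and at most 2 at the latter. The member at Papss2, whose enzyme makes the sulfate donor of the cell (chr19:32620801-32621550, 796 bases from a start site), had total H3K4me3 at 0.55 and 0.99 and K4-K27 at -1.90 and 0.77, from 2 and 44 reads. Its 2 replicates therefore differed far more in K4-K27 than in the total. The 3 members nearest to a K27-K4 region with the highest enrichment lay near Evx2, Fstl4 and Chrm2.

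Over all members, the E14 K4-K27 median was 1.01 log2 RPM per kb (quartiles 0.67 and 1.39) in replicate 1 and 0.51 (0.27 and 0.80) in replicate 2. K27-K4 medians were -0.02 and -0.62, and IgG-IgG was -1.14. Reads spread evenly over the assembly would give -1.45. Median K4-K27 enrichment over IgG-IgG was 2.15 and 1.62 at members, and 1.00 and 1.87 at shared regions. Median K27-K4 enrichment was 1.12 and 0.56 at members, and 1.60 and 2.58 at shared regions. K27-K4 was below K4-K27 in both replicates at 2247 members (83.7%). These reChIP values chose the members and are given with no test. In K27-K4, 1418 members (52.9%) were at least 1 log2 unit above IgG-IgG in replicate 1 and 865 (32.2%) in replicate 2. With each library centred on its median, the mean of both replicates' K27-K4 medians turned from 0.84 above IgG-IgG to -1.10, and that of total H3K4me3 from 0.63 to -0.28, while that of K4-K27 fell from 1.88 to 0.50. In K4-K27, 2056 members (76.6%) passed that level in both replicates. The depth was low, at a median of 11 and 28 reads per member in K4-K27, 4 and 18 in K27-K4 and 2 in IgG-IgG.

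**Figure D2:**
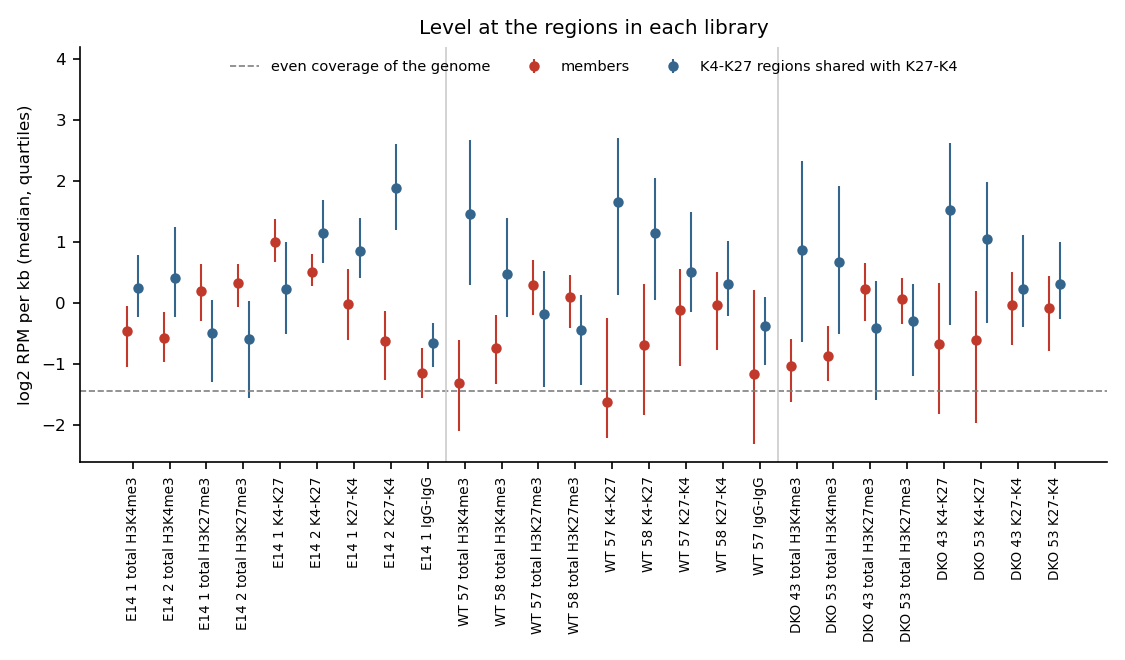
Level in log2 RPM per kb (y axis) at members and at shared regions in each of the 26 libraries (x axis, by cells, replicate or clone, and ChIP), as medians with quartile bars; the dashed line marks even coverage at -1.45. Members stand above shared regions in E14 K4-K27 replicate 1 and in total H3K27me3 of all 6 E14 replicates and clones, and below them in total H3K4me3.

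The in-line totals, which the rule did not use, come from the same first pull-downs as the reChIPs. They showed mostly H3K27me3 at the members. Median total H3K27me3 over IgG-IgG was 1.33 and 1.47 in E14 replicates 1 and 2, and median total H3K4me3 was 0.69 and 0.58, whereas shared regions had 0.20 and 0.15 for H3K27me3 and 0.95 and 1.16 for H3K4me3. Shared regions that overlapped only an E14 total H3K27me3 region had 1.09 and 1.11 for H3K27me3 and 0.43 and 0.34 for H3K4me3. This balance was thus not particular to members. Shared regions in no E14 total region had 0.43 and 0.42 for H3K27me3 and 0.46 and 0.49 for H3K4me3. H3K27me3 was above H3K4me3 at 2004 members (74.7%) in replicate 1 and 2197 (81.9%) in replicate 2. In limma over all 24540 K4-K27 regions, 912 members were called higher in H3K27me3, against 7.62% of all regions, and 98 (3.65%) higher in H3K4me3, against 39.6%. The median difference over members was 0.80 log2 units, and over all regions -0.49. A call means a difference above 1 log2 unit with a Benjamini-Hochberg adjusted p under 0.05 over all regions. Without replicate 2 of total H3K27me3, the second count was 151, and without the lowest 25% of regions it was 58. Median centring of the libraries gave 1769 and 60, and turned the median over all regions to 0.15, with members at 1.44.

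The members called with the largest differences in E14 lay near Slc9a9, Tex12 and Mir153 for H3K27me3, and at Cenpo/Ptrhd1, Crlf2 and near Ptgis for H3K4me3. The member near Tex12, a synaptonemal complex gene (chr9:50559151-50559450), had H3K27me3 at 2.02 and 1.60 and H3K4me3 at -1.04 and -1.57, a difference of 3.12 (95% interval 2.58 to 3.65, limma adjusted p = 6.36e-05). The member at the start sites of Cenpo, a kinetochore gene, and Ptrhd1 (chr12:4233151-4234950) had H3K4me3 at 1.28 and 2.28 and H3K27me3 at -4.47 and -2.03, a difference of -5.03 (-6.80 to -3.27, limma adjusted p = 0.000569). Its K4-K27 values were -1.16 and 1.74, from 8 and 207 reads, and its K27-K4 values 0.10 and 1.34. Replicate 1 was thus close to even coverage there and replicate 2 far above it.

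The same balance was present in the clones. H3K27me3 was above H3K4me3 at between 79.4% (58) and 89.4% (57) of members, with medians of 1.62 (57), 0.78 (58), 1.29 (43) and 0.92 (53). In limma, 1519 members (56.6%) were called higher in H3K27me3, against 12.9% of all regions, and 72 (2.68%) higher in H3K4me3, against 40.4%. With centring the first count was 2329, without the lowest 25% of regions 538, and in the WT clones alone 941. Called higher in H3K27me3 in both the E14 and the clone test were 709 members (26.4%), against 5.76% of all regions, and higher in H3K4me3 in both were 60 (2.24%), against 36.5%. The largest differences lay near Arhgap36, Fzd8 and Peg12 for H3K27me3, and members near Gm16675 and Nsd1 were among the largest for H3K4me3. The called member near Peg12 (chr7:62447551-62449200) had H3K27me3 at 1.20, 0.87, 1.59 and 0.35 and H3K4me3 at -2.16, -2.46, -2.68 and -1.86 in clones 57, 58, 43 and 53, a difference of 3.29 (2.51 to 4.08, limma adjusted p = 1.89e-08). Every H3K27me3 value there was above every H3K4me3 value.

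Members fell into unequal groups by the E14 regions called for each total. Of the 2683, 1758 (65.5%) overlapped neither, 829 (30.9%) total H3K27me3 only, 95 (3.54%) total H3K4me3 only, and 1 both. Among shared regions the shares were 24.3%, 11.1%, 51.9% and 12.7%. The 95 members in H3K4me3 regions differed from the rest in several measures. At promoters stood 20 of them (21.1%), against 3.07% and 3.38% of the 1758 and 829. Their median CpG density was 1.67 per 100 bases, against 0.800 and 0.833. Their K4-K27 enrichment had medians of 0.31 and 1.92 in E14 replicates 1 and 2, while the 1758 had 2.15 and 1.62 and the 829 had 2.29 and 1.58. Shared regions in total H3K4me3 regions only had medians of 0.41 and 1.88, so this order of the replicates was not particular to members.

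The E14 members seldom stood in regions called in the clones. Of the 2683, 2170 (80.9%) overlapped no K4-K27 or K27-K4 region of WT or DKO clones, against 17.1% of shared regions. Overlap was counted from 1 base, and shared regions were wider, with a median of 3300 bases against 600. A wider region meets a called region more readily, and the shares in this paragraph were not matched for width. Clone K4-K27 regions covered 85 members (3.17%) in WT and 107 (3.99%) in DKO. Clone K27-K4 regions, the order in which the members were not called in E14, covered 274 (10.2%) in WT and 282 (10.5%) in DKO. For shared regions, K4-K27 covered 69.7% in WT and 63.8% in DKO, while K27-K4 covered 51.5% and 44.4%. Both orders were called in 32 members (1.19%) in WT and in 43 (1.60%) in DKO, against 42.8% and 37.1% of shared regions. By total, the 829 members in H3K27me3 regions stood in clone K27-K4 regions in 16.0% (WT) and 18.2% (DKO) of cases, and in 2.29% and 3.86% for K4-K27. The 95 in H3K4me3 regions had shares of 28.4% and 38.9% for K4-K27, and of 3.16% and 5.26% for K27-K4. Shared regions differed by class in the same direction. Those in H3K27me3 regions only had 69.0% and 57.4% for K27-K4 and 48.6% and 39.9% for K4-K27, and those in H3K4me3 regions only had 84.6% and 82.8% for K4-K27 and 39.4% and 37.0% for K27-K4.

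**Figure D3:**
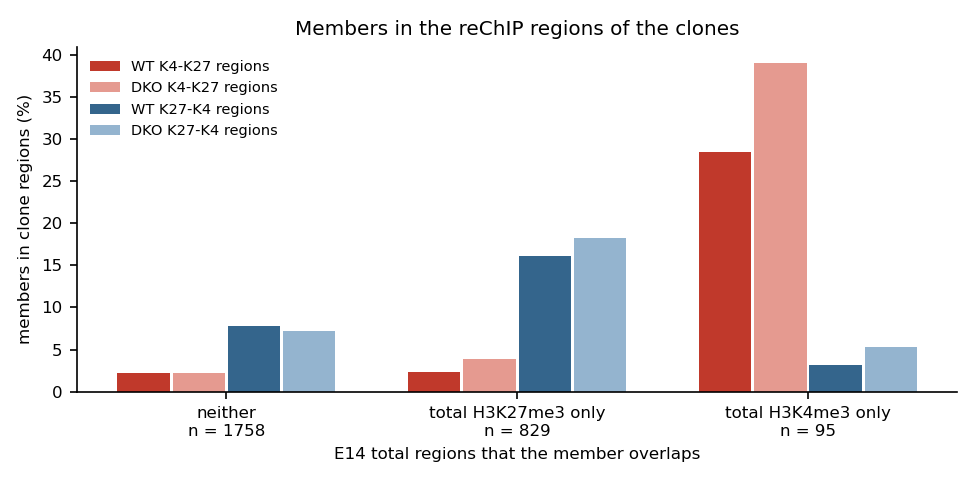
Percentage of members (y axis) that overlap a K4-K27 or K27-K4 region of the WT or DKO clones, by the E14 total regions that the member overlaps (x axis, 1758, 829 and 95 members). Members in total H3K4me3 regions have their taller bars for clone K4-K27 (28.4% and 38.9%), and members in total H3K27me3 regions for clone K27-K4 (16.0% and 18.2%).

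The order of the antibodies was then compared in the clones, whose libraries the rule did not use. The median of K27-K4 minus K4-K27 over the members was 0.96 in clone 57, 0.33 in 58, 0.62 in 43 and 0.53 in 53, so K27-K4 was the higher order in all 4 clones. From RPM summed over the members, the log2 ratios were smaller, at 0.80, 0.21, 0.29 and 0.29. At shared regions it was -0.29, -0.32, -0.30 and -0.10. In E14, where the rule used these libraries, it was -1.02 and -1.10 at members and 0.58 and 0.78 at shared regions. The members' K4-K27 medians were -1.62 (57), -0.69 (58), -0.66 (43) and -0.60 (53) log2 RPM per kb, with clone 57 below even coverage. K27-K4 medians were -0.11, -0.03, -0.02 and -0.07, and IgG-IgG of clone 57 was -1.16. The K27-K4 medians of the clones lay close together, whereas clone 57 stood apart in K4-K27.

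**Figure D4:**
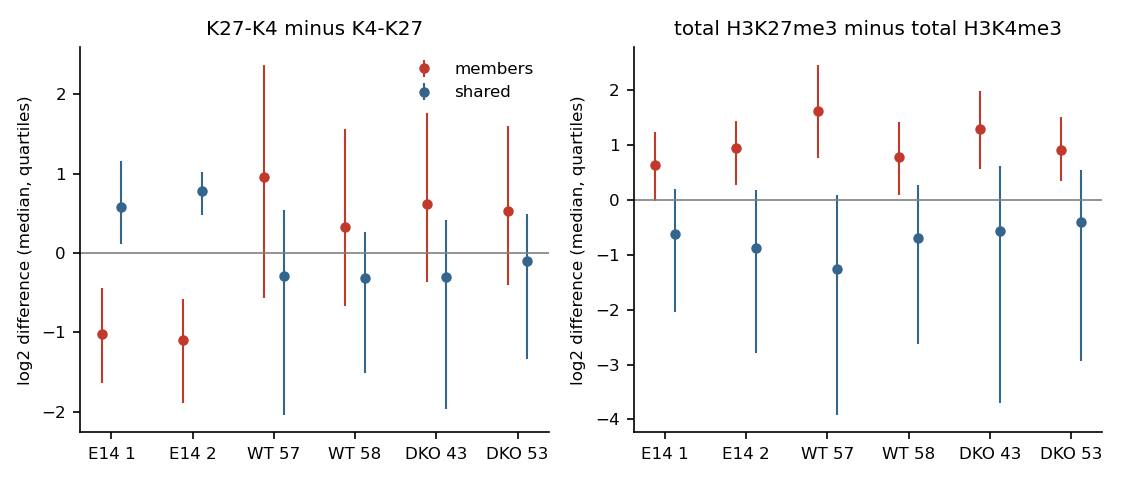
Difference in log2 RPM per kb (y axes), as medians with quartile bars over members and over shared regions, in each E14 replicate and clone (x axes), for K27-K4 minus K4-K27 (left) and total H3K27me3 minus total H3K4me3 (right). On the left, members lie at -1.02 and -1.10 in E14, where the rule used these libraries, and between 0.33 and 0.96 in the clones; on the right they lie above 0 in all 6, and shared regions below.

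In limma over the 8 reChIP libraries of the clones, 295 members were called higher in K27-K4, against 3.32% of all regions, and 55 (2.05%) higher in K4-K27, against 29.0%. The median difference was 0.72 over members and -0.01 over all regions. With each library centred on its median, 1161 members were called higher in K27-K4 and 35 in K4-K27 (medians 1.45 over members and 0.72 over all regions), and with limma-voom on the recovered reads 122 and 45. Of the 894 members with a mean of at least 10 reads in these libraries, 107 were called higher in K27-K4 and 38 (4.25%) in K4-K27. K27-K4 was above K4-K27 in all 4 clones at 539 members (20.1%), and at 18.9% of shared regions. It was below in all 4 at 88 members (3.28%) and at 40.5% of shared regions. The members in H3K4me3 regions went against the rest, with 2 of 95 called higher in K27-K4 and 41 (43.2%) in K4-K27, while of the 829 in H3K27me3 regions 123 (14.8%) were called higher in K27-K4 and 3 in K4-K27. The clones' K4-K27 libraries were thin at the members, with a median of 1 (57), 4 (58), 4 (43) and 5 (53) reads and 1206, 568, 732 and 476 members at 0 reads.

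The members called with the largest differences toward K27-K4 lay near Zfp846, Pax5 and Gm14616. The member near Pax5, a B-cell transcription factor (chr4:44732251-44732700, intergenic), had K27-K4 at 0.75, 1.23, 1.13 and 1.14 in clones 57, 58, 43 and 53, from 12 to 23 reads, and K4-K27 at -2.21, -1.27, -2.40 and -2.70, from at most 2 reads. The difference was 3.21 (95% interval 2.11 to 4.30, limma adjusted p = 2.78e-05), and the K27-K4 values lay above the K4-K27 values without overlap. In E14 the same member had K4-K27 at 1.75 and 0.13 and K27-K4 at -0.02 and -0.18, the opposite order. Toward K4-K27, the largest differences were at Gm2381, Thg1l and Gm6712, each overlapping an exon at a start site and an E14 total H3K4me3 region. At Thg1l, which adds a guanosine to histidine tRNA (chr11:45954901-45955800), K4-K27 was 2.53, 1.05, 2.88 and 2.13 and K27-K4 -0.83, -4.09, -2.07 and -1.14, a difference of -4.18 (-5.54 to -2.82, limma adjusted p = 0.000109). Its E14 K4-K27 values were -1.58 and 1.37, from 3 and 80 reads; only replicate 2 stood above IgG-IgG at -0.40.

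The question of what loss of Dppa2 and Dppa4 does to these regions was put to each ChIP in limma. The median of DKO minus WT over members was 0.17 in K4-K27, 0.04 in K27-K4, 0.06 in total H3K4me3 and -0.02 in total H3K27me3, where all regions had -0.11, -0.07, -0.05 and 0.02. These signs did not hold. Median centring turned the all-region medians to 0.07, 0.06 and 0.25 in the first 3 ChIPs and the members' to 0.01 in total H3K27me3. Without clone 57 the members had -0.13, -0.03, -0.23 and 0.05 in the same order. K27-K4 also turned, to -0.01, without clone 58 and to -0.04 without the lowest 25% of regions, total H3K4me3 to -0.08 without those regions, and total H3K27me3 to 0.07 without clone 53. In K4-K27, 48 members (1.79%) were called higher in DKO, against 0.513% of all regions, and 43 (1.60%) lower, against 3.45%. In K27-K4, 143 (5.33%) were called higher, against 1.26%, and 151 (5.63%) lower, against 7.14%. In total H3K4me3, 24 (0.895%) were higher, against 0.118%, and 47 (1.75%) lower, against 4.15%. In total H3K27me3, 54 (2.01%) were higher, against 0.546%, and 65 (2.42%) lower, against 2.05%. In both reChIP orders, 5 members (0.186%) were called higher, against 0.0448% of all regions, and 6 (0.224%) lower, against 2.65%.

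These counts moved with the fit. With limma-voom on the recovered reads, 0 members were called higher and 0 lower in K4-K27 (29 and 20 at an unadjusted p under 0.05, against 251 and 160 on the deposited values), 2 and 3 in K27-K4, 1 and 11 in total H3K4me3, and 0 and 5 in total H3K27me3 (41 and 75 unadjusted). Median centring gave 18 higher and 8 lower in K4-K27, 111 and 77 in K27-K4, and 50 and 30 in total H3K4me3. Without the variance trend or robust estimation, K27-K4 gave 37 higher and 32 lower, total H3K4me3 31 lower, and total H3K27me3 5 and 5. Each comparison has 2 clones a side, and single clones decided the counts. Without clone 43, K4-K27 gave 10 higher, K27-K4 21 higher and 99 lower, total H3K4me3 0 higher and 2 lower, and total H3K27me3 6 and 14. Without clone 53, K4-K27 gave 23 higher, K27-K4 24 higher and 68 lower, total H3K4me3 0 higher and 13 lower, and total H3K27me3 22 higher. Without clone 57, K4-K27 gave 20 lower, K27-K4 243 higher, total H3K4me3 60 higher and 145 lower, and total H3K27me3 172 higher. Without clone 58, the counts were 96 higher in K4-K27, 299 higher in K27-K4, 259 higher and 117 lower in total H3K4me3, and 86 higher and 118 lower in total H3K27me3.

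**Figure D5:**
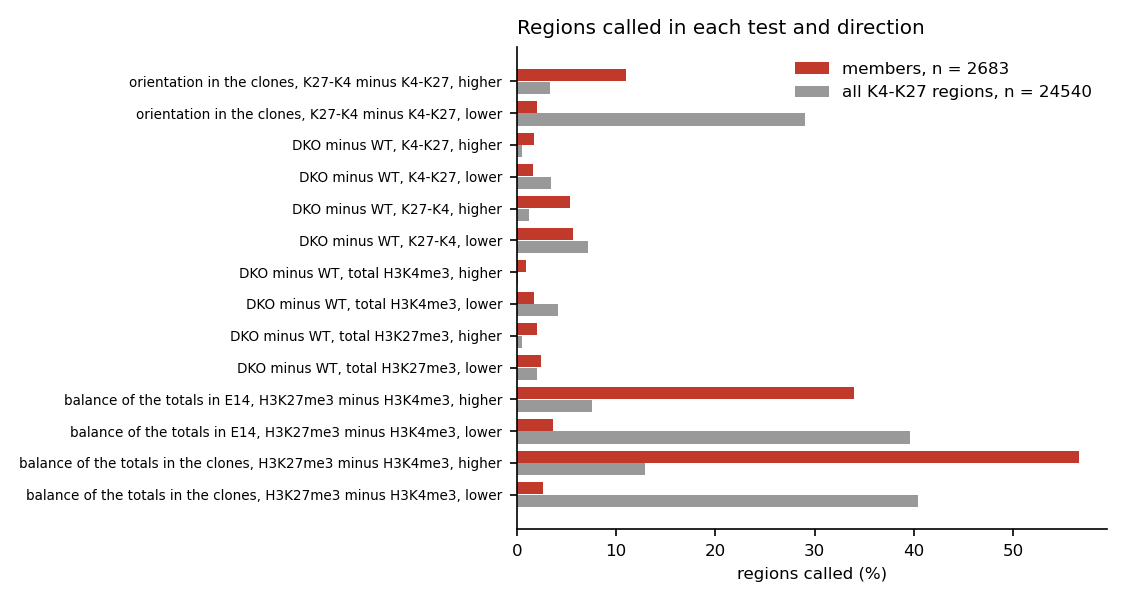
Percentage of regions called (x axis) in each limma test and direction (y axis), for the 2683 members and for all 24540 K4-K27 regions. The totals separate members from all regions most (56.6% against 12.9% higher in H3K27me3 in the clones), while in DKO minus WT at most 5.63% of members are called in a direction.

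Among the called members, the largest rises of K4-K27 in DKO lay near Antxr2, Igfbp3 and Rnft1 and the largest falls near Mip, Nrg2 and Ctnnd2. The member near Rnft1 (chr11:86458651-86459550, in an E14 total H3K4me3 region) had K4-K27 at -2.06 and -2.27 in WT clones 57 and 58 and 1.51 and 1.21 in DKO clones 43 and 53, from 2, 2, 27 and 27 reads (difference 3.52, 95% interval 1.99 to 5.05, limma adjusted p = 0.000546). The member near Mip, the lens water channel (chr10:128220601-128221650), had 2.01 and -0.49 in WT and 0 reads in both DKO clones. In K27-K4, the largest rises lay near Pax3, 9230112D13Rik and Sgcd and the largest falls near Gpr63, Cacna1e and Gm41414. One of the 13 members near Pax3 (chr1:78125851-78126150, intronic, 70986 bases from a start site) had 0 and 1 reads in WT and 23 and 17 in DKO, while its total H3K27me3 was 1.62 and 0.10 in WT and 1.54 and 0.98 in DKO. In the totals, H3K4me3 rose most near Mkrn3, Gm6602 and Mir195b and fell most near Vmn2r98, Hrh4 and Ptprt, and H3K27me3 rose most near Olfr748, Gm32624 and Ing3 and fell most near Spaca1, B230209E15Rik and Tbr1. The intronic member near Spaca1, a sperm acrosome gene (chr4:34046701-34047000), had H3K27me3 at 0.99 and 1.10 in WT (11 and 10 reads) and -2.61 and -2.34 in DKO (0 and 2 reads), a difference of -3.52 (-4.30 to -2.74, limma adjusted p = 1.54e-14). The 0 was entered as 0.9 reads and the fit does not model read counts, so this interval and p can overstate the precision. With limma-voom, 5 members were called lower in this test.

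The members grouped by nearest gene were read beside all members. Of the 111 near developmental transcription factors, 53 (47.7%) overlapped an E14 total H3K27me3 region, against 30.9% of members, and 66 (59.5%) were called higher in H3K27me3 than H3K4me3 in E14, with a median difference of 1.17 against 0.80 over members. That call was made for 912 of the 2683 members and 7.62% of all regions. In the clones 85 (76.6%) were called so and 0 the other way, where 56.6% of members and 12.9% of all regions were called. Of the 36 near genes of the imprinted list, 25 (69.4%) were called higher in H3K27me3 in the clones, at a median of 1.79, and 9 in E14, at 0.78. A few loci carried the clone count, with 10 of 12 members near Peg12, 3 of 5 near Th and 4 of 4 near Grb10, of which Th and Grb10 were picked out after their values were seen. Of the 48 near olfactory and vomeronasal receptors, 16 (33.3%) were called in the clones and 9 (18.8%) in E14 with medians of 0.96 and 0.39. Of the 34 near immune genes, 16 were called in the clones and 4 in E14. For K27-K4 against K4-K27 in the clones, 14 of 111, 2 of 36, 3 of 48 and 2 of 34 were called higher in K27-K4, and 1, 0, 1 and 0 lower. Over all members these calls numbered 295 and 55 (2.05%) of 2683, and over all regions they made up 3.32% and 29.0%. DKO minus WT calls are not given by list, since limma-voom called at most 11 members in all in a direction.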

How the data were processed

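ChIP-seq and ChIP-reChIP libraries were sequenced from E14 cells (9 libraries) and from WT and DKO clones (17 libraries), grouped as the labels give them. The authors aligned reads with BWA 0.7.13 to mm10 and deposited log2 values (log2 RPM per kb, from SeqMonk with mapping quality over 20, duplicates kept and no IgG subtraction) for each region and library. The submitters' processing notes also name Trim Galore 0.6.6, Picard 2.6.0, SAMtools 1.9, deepTools 3.5.0 and MACS2. The study's methods describe region calling with EPIC2 against IgG-IgG in bins of another size, whereas all deposited region widths were multiples of 150 bases. The sets are also larger than the study's text describes, so members here are not its own K4-K27-only peaks. How these sets were called is not given in the sources used here. Another 32 columns of the tables belong to no sample used here and were left out. Regions with 0 reads were entered by the authors as 0.9 reads. Whole reads were recovered from 100% of the values, and libraries held between 6741244 and 47903462 reads (median 16875025.5). Read counts at single members are small, so their precision is limited by counting error. Limma on the log2 values does not model the counts, so intervals and p-values of single members can overstate precision.

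Regions were compared by at least 1 shared base. Start sites and exons came from RefSeq on GRCm38, and a promoter reached 1.5 kb either side of a start site. Tests used limma 3.58.1 (R 4.3.3) on the log2 values of all 24540 K4-K27 regions (eBayes with an intensity trend, robust), Benjamini-Hochberg adjustment over all of them, an adjusted p under 0.05 and a difference above 1. With 200 simulated regions shifted by 3 log2 units among 24540, 82% were recovered for K27-K4 against K4-K27 in the clones, 46% to 88.5% for DKO minus WT, and 81.5% (E14) and 96% (clones) for the totals. Between 5 and 22 unchanged regions were called per test. The shifted regions were drawn from all regions, with normal noise and no read counts, so these rates need not hold for members. The members, gene lists and tests were chosen with earlier results of these data known.

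Named members were the 5 highest in E14 K4-K27, total H3K27me3 and total H3K4me3 enrichment with at least 10 reads in both ranked libraries, the 3 widest, the 3 nearest to a K27-K4 region, up to 2 at promoters of each gene list, and the 3 called with the largest difference in each direction of each test. 1 of these members is not reported here. The gene lists covered developmental transcription factors, signalling, axon guidance, ion channels, olfactory receptors, immune, germline, pluripotency, Polycomb and Trithorax, ribosomal protein, zinc finger and imprinted genes.

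ChIPs of a clone or E14 replicate came from the same cells, so the numbers pair the libraries. Deviations from group means correlated at -0.11 in E14 totals, 0.03 and 0.04 in WT and DKO reChIPs, and -0.15 and -0.11 in their totals. The alternatives were median centring, no variance trend, leaving out the lowest 25% of regions, limma-voom on recovered reads, no difference threshold, leaving out each library or clone, a replicate block, single genotypes, and other promoter, overlap and enrichment limits. Crossed pairing and a minimum of 10 reads were added after seeing the data.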

Additional observations from a re-analysis of the deposited data

Results flagged for a closer look

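The order of the antibodies at the members had opposite signs in E14 and in the clones. The median of K27-K4 minus K4-K27 over the 2683 members was -1.02 in E14 replicate 1 and -1.10 in replicate 2, and 0.96 in WT clone 57, 0.33 in WT clone 58, 0.62 in DKO clone 43 and 0.53 in DKO clone 53. It was singled out because both E14 replicates lay on one side and all 4 clones on the other. This difference was not tested. The E14 sign was set in part by the rule that chose the members, and line and sequencing batch cannot be told apart. Shared regions changed sign too, from 0.58 and 0.78 in E14 to -0.29, -0.32, -0.30 and -0.10 in clones 57, 58, 43 and 53. A change of sign was thus not particular to members. From RPM summed over the members, the clone log2 ratios were 0.80, 0.21, 0.29 and 0.29. Between genotypes, the interaction of genotype and antibody order was tested among the clones with limma. It called 0 of all 24540 regions in either direction, and so 0 members. At an unadjusted p under 0.05 there were 114 members higher and 170 lower, and the smallest Benjamini-Hochberg adjusted p was 0.142.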

How the results depend on the processing

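Counts are given as higher, then lower. Median centring raised the median difference over all regions by 0.73 for K27-K4 minus K4-K27, for DKO minus WT by 0.17 (K4-K27), 0.13 (K27-K4), 0.30 (total H3K4me3) and 0.03 (total H3K27me3), and by 0.65 (E14) and 0.85 (clones) for the totals. With it the counts were 1161 and 35 for antibody order, 18 and 8 for DKO K4-K27, 77 lower for DKO K27-K4, 50 and 30 for DKO total H3K4me3, 1769 and 60 for the E14 totals and 2329 higher for the clone totals. Centred enrichment over IgG-IgG, listed as the H3K4me3 total, the H3K27me3 total, then K4-K27, then K27-K4, was -0.2807, 1.1327, 0.4972 and -1.0983 in E14, -1.2075, 0.9969, -1.1406 and 0.0396 in WT, and -0.7296, 1.0119, -0.9912 and 0.2807 in DKO. From summed reads it was 0.7291, 0.0766 and 0.5795 in WT (the H3K27me3 total, then K4-K27, then K27-K4), and -0.1339, 0.7085 and 0.5651 in DKO (the H3K4me3 total, the H3K27me3 total, then K27-K4). With limma-voom the counts were 122 higher for antibody order, 0 and 0 for DKO K4-K27, and 2 and 3 for K27-K4. The DKO totals gave 1 and 11 (H3K4me3) and 0 and 5 (H3K27me3). Without the variance trend they were 37 and 32 for DKO K27-K4, 31 lower for total H3K4me3 in DKO, and 5 and 5 in its H3K27me3 total. Without the lowest 25% of regions they were 91 higher for antibody order, 78 higher for DKO K27-K4, 4 and 20 for total H3K4me3, 58 lower for the E14 totals and 538 higher for the clone totals, with fewer members tested. Members with at least 10 reads gave 107 higher for antibody order, DKO clones alone 131 lower, and WT clones alone 941 higher for the clone totals.

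Leaving out each library or clone gave 219 to 363 and 68 to 73 for antibody order, 10 to 96 and 20 to 42 for DKO K4-K27, 21 to 299 and 68 to 217 for K27-K4, 0 to 259 and 2 to 145 for H3K4me3 totals in DKO, 6 to 172 and 14 to 118 for H3K27me3 totals in DKO, 803 to 1045 and 95 to 151 for the E14 totals, and 1185 to 1561 and 68 to 83 for the clone totals. With the replicate block the counts were 253 and 58 for antibody order, 949 and 105 for the E14 totals and 1408 and 71 for the clone totals, all within 1.5 times of those without it. Crossed pairing of the totals gave 933 and 101 in E14 and 1584 and 76 in the clones.

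Leaving out members within 1 kb of a K27-K4 region made them 8.782% of K4-K27 regions, and asking for 1 log2 unit over IgG-IgG in all K4-K27 regions left 2056 members among 12501, or 16.447% (8.38% of all 24540). The promoter share was 19.009% within 5 kb, 2.013% from 1 kb upstream to 100 bases downstream and 3.113% over that enrichment limit, which also gave 1.702% in E14 total H3K4me3, 33.609% in total H3K27me3, 1.654% in WT K4-K27 and 2.14% in DKO K4-K27 regions. Asking for overlap over 0.5 of the smaller region gave 9.02% in WT K27-K4. For the 42 named called members, 353 of 404 repeated results kept direction and call, 51 kept direction only and 0 reversed. The cause of these shifts was not tested beyond what each setting does by construction. Depth limits single members most: IgG-IgG had a median of 2 reads in E14, and K4-K27 of clone 57 had 1.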
